A study of Mus musculus with 4 samples.

Results

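The 8 genes described here (Cpt1a, Cpt2, Acadm, Acadl, Ehhadh, Acot1, Pdk4 and Ppara) carry fatty acids into mitochondria, break them down, or set how far the liver burns fat in place of glucose. They were found among 23462 genes with a probe by matching the transcript accession of each probe to a gene symbol, which gave 10 of 56605 probes: 1 each for 6 genes, and 2 each for Cpt2 and Ppara. No measured value entered the matching of probes to genes. The 8 genes themselves were chosen with earlier results of these data known. All 10 probes were well above background on all 4 arrays and none was saturated.

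Expression was read on 4 one-colour genome-wide arrays, 1 for each of 4 groups, from RNA of whole livers of male mice. The first group was aging diabetic mice given astragalus polysaccharide (APS, a polysaccharide preparation from a medicinal root) together with metformin, and the second was aging diabetic mice given metformin alone, a biguanide drug that lowers blood glucose. The third was aging diabetic mice for which the labels name no drug, and the fourth was naturally aging mice, labelled as untreated. All 4 groups were male and had been fasted for 12 hours, so fasting is shared by the natural aging mice as well. The labels give no strain, age, way of inducing diabetes, dose or length of treatment, do not say what the 60 d in the sample titles counts from, and leave unsaid whether each RNA is from a single animal or pooled. The series was set up to ask how the combination relates to liver mRNA in aging diabetic mice.

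Long-chain fatty acids enter mitochondria bound to carnitine and are then shortened step by step by beta-oxidation. The liver turns much of the resulting acetyl-CoA into ketone bodies during fasting, and peroxisomes shorten the chains that mitochondria handle poorly. The nuclear receptor PPAR-alpha, the product of Ppara, switches on many of these genes when fatty acids reach the liver, and pyruvate dehydrogenase kinases such as Pdk4 spare glucose carbon by shutting the entry of pyruvate into the same acetyl-CoA pool.

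With 1 array per group there was no replicate, so no test was possible and every difference below is a difference between 2 arrays. Levels are log2 signals relative to the 75th percentile of the same array, so 0 is that percentile, and they are compared between arrays for 1 probe, never between probes. The scanner software gave each member level an error of 0.115 to 0.118 log2, and each difference between arrays an error of about 0.163 log2, which cover measurement only. A difference of 1 log2 or more in size, 2-fold, was used as the line for calling a gene higher or lower. Counts and values of genes with several probes are for the brightest probe unless another is named. Of 59305 spots that were not controls, 35743 were well above background on the APS plus metformin array, 37402 on the metformin array, 34895 on the aging diabetic array and 33668 for natural aging. The 6 comparisons share arrays, so they are not independent of one another. The 8 hepatocyte markers checked were well above background on all 4 arrays, with summed signals of 126, 94.2, 118 and 149 times the 75th percentile on the APS plus metformin, metformin, aging diabetic and natural aging arrays.

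The promoters of 4 members are printed to show what the letters upstream of the genes whose brightest probes differed most between arrays (Pdk4, Ehhadh and Acot1) and of one that differed little (Cpt1a) look like. Each is the 250 bases before the gene's start in RefSeq (GRCm38.p6), read 5′ to 3′ on the gene's own strand, and all 8 members matched an entry. Capitals mark matches, on either strand, to the nuclear receptor half-site AGGTCA. They also mark matches to the CCAAT box.
Pdk4 (chr6:5496279-5496528, - strand): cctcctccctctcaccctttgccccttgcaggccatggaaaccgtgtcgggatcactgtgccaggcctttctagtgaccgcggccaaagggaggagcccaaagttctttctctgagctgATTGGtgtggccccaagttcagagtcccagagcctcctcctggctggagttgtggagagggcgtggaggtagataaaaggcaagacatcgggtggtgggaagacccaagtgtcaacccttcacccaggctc
Ehhadh (chr16:21787835-21788084, - strand): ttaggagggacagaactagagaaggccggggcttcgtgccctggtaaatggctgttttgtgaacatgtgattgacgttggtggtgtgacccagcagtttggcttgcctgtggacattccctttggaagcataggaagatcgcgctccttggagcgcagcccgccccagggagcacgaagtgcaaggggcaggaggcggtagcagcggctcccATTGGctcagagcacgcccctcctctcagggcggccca
Acot1 (chr12:84009252-84009501, + strand): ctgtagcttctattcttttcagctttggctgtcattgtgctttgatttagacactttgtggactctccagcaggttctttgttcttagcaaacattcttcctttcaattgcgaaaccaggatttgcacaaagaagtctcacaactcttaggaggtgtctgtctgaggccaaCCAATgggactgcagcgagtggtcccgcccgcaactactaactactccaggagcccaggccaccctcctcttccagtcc
Cpt1a (chr19:3323051-3323300, + strand): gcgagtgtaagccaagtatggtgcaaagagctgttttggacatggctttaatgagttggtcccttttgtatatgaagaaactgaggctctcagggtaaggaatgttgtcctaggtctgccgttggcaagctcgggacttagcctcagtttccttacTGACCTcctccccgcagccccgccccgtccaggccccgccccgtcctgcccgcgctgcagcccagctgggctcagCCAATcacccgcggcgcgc
A CCAAT box lay 131 bases before the start of Pdk4, 38 before that of Ehhadh, 79 before that of Acot1 and 19 before that of Cpt1a. CCAAT thus occurred in 4 of 8 members, and in 33.8% of 32851 mouse promoter windows of this length. Cpt1a also held the half-site, 94 bases before its start, and Acadm held it 249 bases before its start, against 14% of all windows. None of the 8 windows held a direct repeat of the half-site with 1 base between the copies, the arrangement that PPAR-alpha binds with its partner RXR (AGGTCANAGGTCA on either strand with up to 2 mismatches, found in 3.24% of all windows). None held GTAAACA, a FOXO site (3.17% of all windows), or TATAAA (12.4%). The windows differed in base composition: the share of G and C was 48.8% for Acot1 and 76.4% for Ppara, with a median of 52.4% over all windows, and CpG pairs numbered 4 in Acot1, 6 in Pdk4 and 27 in Ppara.

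**Figure D1:**
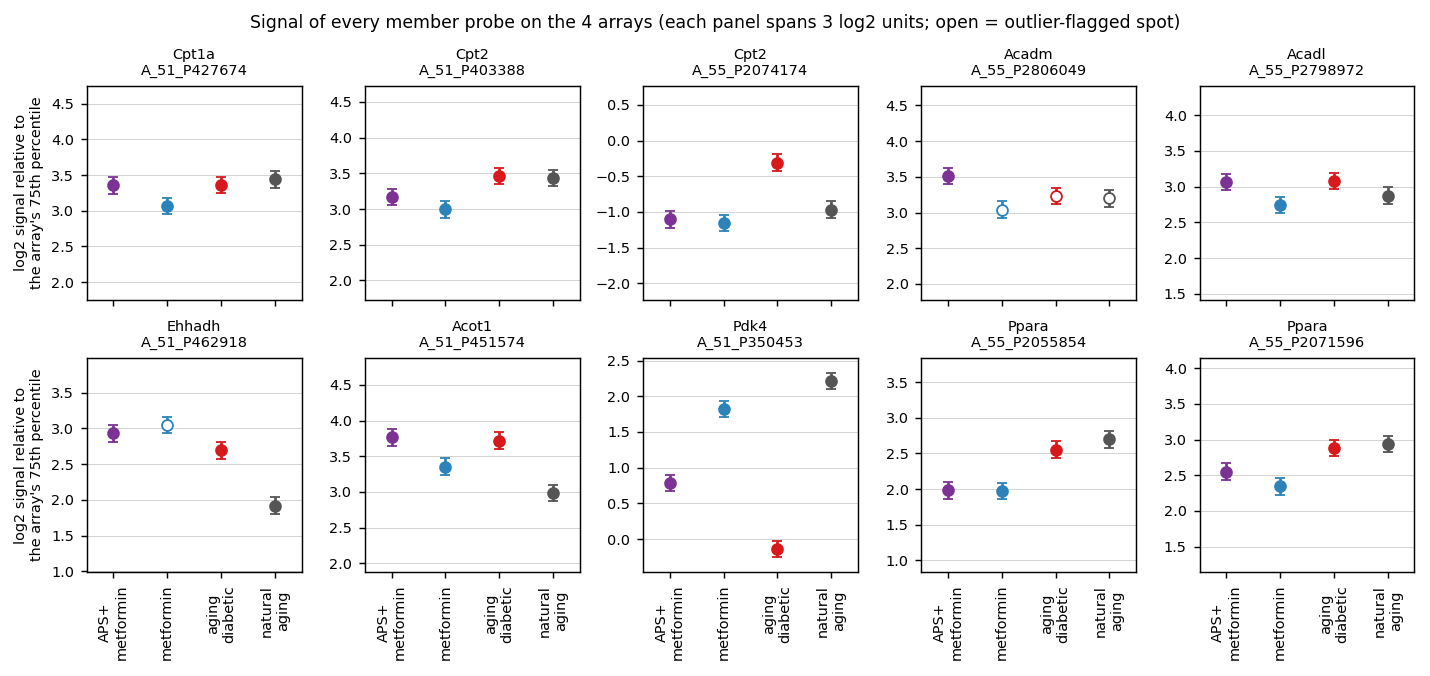
Log2 signal of each of the 10 member probes relative to the array's 75th percentile, on the APS plus metformin, metformin, aging diabetic and natural aging arrays (1 array each). Error bars are the scanner software's measurement error, open points are spots with an outlier flag, and every panel covers 3 log2 units. Pdk4 spans 2.35 units and is lowest on the aging diabetic array, Ehhadh is lowest on the natural aging array, and Cpt1a, Acadl and Acadm stay within 0.47.

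Cpt1a and Cpt2, the carnitine shuttle genes among the members, stayed within 2-fold on each probe. Cpt1a encodes the liver form of carnitine palmitoyltransferase on the outer mitochondrial membrane, which controls entry of long-chain fatty acids. Its levels were 3.36 on the APS plus metformin array, 3.06 on the metformin array, 3.36 on the aging diabetic array and 3.44 on the natural aging array. The whole span was 0.38, and the metformin array alone was lower than the other 3 by more than the error of a difference. The differences were -0.30 for metformin against aging diabetic and 0.29 for APS plus metformin against metformin. Under quantile normalization the second shrank to 0.02, and the difference of metformin from natural aging, -0.38, turned to 0.05.

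Cpt2 encodes the inner membrane enzyme that releases the fatty acid from carnitine. Its brighter probe read 3.17 with APS plus metformin, 2.99 with metformin, 3.46 in aging diabetic liver and 3.43 in natural aging liver. The order was that of the diabetic and natural aging arrays above both treated ones, and the largest difference was -0.47, for metformin against aging diabetic. The dimmer Cpt2 probe read -1.11, -1.15, -0.31 and -0.97 on the APS plus metformin, metformin, aging diabetic and natural aging arrays. It differed from the brighter one in that the aging diabetic array stood apart, 0.66 above the natural aging array, where the brighter probe had a difference of 0.03.

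The other genes of the shuttle list varied more. Of its 7 genes, Cpt1a and Cpt2 included, 3 were past 2-fold in aging diabetic against natural aging, all higher. That is 42.9%, beside 14.2% of all genes, and the count was 2 or 3 over the alternatives. Against natural aging the share was also 42.9% with metformin (17.9% of all genes) and 28.6% with APS plus metformin (13.0%). Crat, carnitine acetyltransferase, read 1.04 with APS plus metformin, 1.31 with metformin, 2.16 in aging diabetic liver and -0.04 in natural aging liver. All 3 diabetic arrays were thus at least 2-fold above the natural aging array, and the aging diabetic array was the highest, 4.61-fold above it. The dimmer Crat probe was also highest in aging diabetic liver (-3.77) and read -4.94 with metformin. It was not well above background with APS plus metformin or in natural aging liver. Cpt1b, the muscle form of Cpt1a, read -3.16, -2.40, -2.04 and -3.70 on the APS plus metformin, metformin, aging diabetic and natural aging arrays and was 3.18-fold higher in aging diabetic than in natural aging liver. Cpt1c, a form known from brain, did not clear background in natural aging liver on its brighter probe and was at least 2.04-fold higher in aging diabetic liver, a bound that fell under 2-fold in 5 of 8 alternative settings. Its dimmer probe differed by 0.01 in that comparison. Slc25a20, the carrier that moves acylcarnitine across the inner membrane, stayed within 2-fold in all 6 comparisons, with a largest difference of -0.57 for metformin against aging diabetic, from a spot with an outlier flag on the aging diabetic array. Skeletal muscle markers had a summed signal of 0.860, 0.807, 0.927 and 0.637 times the 75th percentile on the APS plus metformin, metformin, aging diabetic and natural aging arrays, with 3 or 4 of 7 markers well above background, and the muscle genes Ckm and Mb were not well above background on any array. The sum was thus highest on the aging diabetic array and lowest on the natural aging array, as for Cpt1b. The muscle myosin light chain Mylpf read -0.91 in aging diabetic liver, against -2.22 in natural aging liver, and was 2.49-fold higher there. Mylpf alone had a signal of 0.533 times the 75th percentile in aging diabetic liver, where the sum was 0.927. In natural aging liver it had 0.215, where the sum was 0.637. Other detected muscle markers had other orders: Tnnt3 was lowest in aging diabetic liver (-2.33) and Acta1 was highest with metformin (-2.73). The part of the muscle markers in the Cpt1b difference was not tested.

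The acyl-CoA dehydrogenases of mitochondrial beta-oxidation were nearly level. Acadm, the medium-chain enzyme, read 3.51 with APS plus metformin, 3.04 with metformin, 3.23 in aging diabetic liver and 3.20 in natural aging liver. The APS plus metformin array was the highest, by 0.47 over metformin, 0.28 over aging diabetic and 0.32 over natural aging. The Acadm spot had an outlier flag on the other 3 arrays, so each of these differences rests on a flagged spot. Acadl, the long-chain enzyme, read 3.06 with APS plus metformin, 2.75 with metformin, 3.08 in aging diabetic liver and 2.87 in natural aging liver. Its largest difference was -0.34, for metformin against aging diabetic, with an error of 0.163.

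The mitochondrial beta-oxidation list held 16 genes, members included, and none reached 2-fold on its brightest probe in any of the 6 comparisons. Between 11.2% and 17.9% of all genes did, but only 0.952% to 3.25% of the 3257 genes with a mean level of 2 or more. With each array's median as the scale 1 of the 16 was past 2-fold in APS plus metformin against metformin. In APS plus metformin against metformin all 16 differences were above 0, with a median of 0.30, while all genes had a median of -0.01 and the bright genes had 0.20. In metformin against aging diabetic all 16 were below 0, with a median of -0.20, against -0.02 for all genes and -0.17 for the bright genes. These directions depend on the scaling: under quantile normalization or another alternative as few as 8 of 16 were above 0 in APS plus metformin against metformin, and as many as 5 of 16 in metformin against aging diabetic. Other enzymes of the list were read as well. Acadvl, the very-long-chain dehydrogenase, read 3.65, 3.50, 3.77 and 3.80 on the APS plus metformin, metformin, aging diabetic and natural aging arrays, and Hadhb, a subunit of the trifunctional protein, read 3.82, 3.38, 3.71 and 3.76. The dimmer Hadhb probe read 2.09, 0.99, 2.07 and 1.43, with outlier flags on the first 3 spots. On that probe APS plus metformin was 2.14-fold above metformin, and metformin was 2.11-fold below aging diabetic. The summed hepatocyte markers, given above, were also lowest on the metformin array. Their part in these differences was not tested, and fewer cells of a type cannot be told apart from less RNA per cell in whole liver.

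Ehhadh, the bifunctional enzyme of peroxisomal beta-oxidation and a known PPAR-alpha target, was lowest in natural aging liver. It read 2.93 with APS plus metformin, 3.05 with metformin and 2.69 in aging diabetic liver, against 1.92 in natural aging liver. The 3 diabetic arrays lay within 0.36 of one another and all stood above the natural aging array. The difference from natural aging was 1.01 (2.01-fold) for APS plus metformin, 1.13 (2.19-fold) for metformin and 0.77 for the aging diabetic array, the last short of 2-fold. The metformin spot had an outlier flag, and both calls sat close to the line: with each array's median as the scale the differences were 0.97 for APS plus metformin and 0.92 for metformin. Among all genes compared, 13.0% were past 2-fold and 6.31% were higher in APS plus metformin against natural aging. In metformin against natural aging the shares were 17.9% past 2-fold and 13.1% higher.

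Abcd2, a peroxisomal transporter of very-long-chain acyl-CoA, was likewise lowest in natural aging liver. Of the 16 genes of the peroxisomal list it was the only one beside Ehhadh past 2-fold on its brightest probe in any comparison. It read -2.27 with metformin and -2.91 in aging diabetic liver, against -4.04 in natural aging liver, and APS plus metformin lay 0.26 above metformin. The differences from natural aging were 2.04 for APS plus metformin, 1.77 for metformin and 1.13 for aging diabetic, and the last was 0.61 after normexp background correction. Acaa1b, a peroxisomal thiolase, read 3.68, 3.40, 3.39 and 3.84 on the APS plus metformin, metformin, aging diabetic and natural aging arrays. It was highest in natural aging liver, where Ehhadh was lowest, and stayed within 2-fold. For the metformin difference from natural aging the range over the alternatives was -0.66 to 0.04 for Acaa1b, so its direction depends on the setting.

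Acot1 encodes a cytosolic thioesterase that frees fatty acids from CoA. It read 3.76 with APS plus metformin, 3.35 with metformin and 3.72 in aging diabetic liver, against 2.99 in natural aging liver. All 3 diabetic arrays were higher than the natural aging array, by 0.77 (1.71-fold), 0.37 and 0.73 (1.66-fold), and none reached 2-fold. Treatment differences were smaller: 0.41 for APS plus metformin against metformin, and -0.37 for metformin against aging diabetic, while APS plus metformin and aging diabetic differed by 0.04, within the error.

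Paralogs of Acot1 in the same gene cluster had the same low natural aging array. Acot2, the mitochondrial form, read 2.59, 2.61, 2.45 and 1.55 on the APS plus metformin, metformin, aging diabetic and natural aging arrays, with an outlier flag on each spot. Acot5, a peroxisomal form, read 2.35, 1.45, 1.86 and 0.22 and was 4.38-fold, 2.34-fold and 3.10-fold above natural aging with APS plus metformin, with metformin and in aging diabetic liver. The dimmer Acot5 probe was highest with metformin, at -2.88, and read -4.16 in aging diabetic liver. It was not well above background with APS plus metformin, where the brighter probe was highest, or in natural aging liver. Acot3 and Acot4 were higher in aging diabetic than in natural aging liver by 0.87 and 0.68 on their brighter probes, short of 2-fold. Their dimmer probes were past it in that comparison, by 2.83 for Acot3 and 1.08 for Acot4. The brighter Acot4 probe had an outlier flag on each spot. These genes are close in sequence, and how far their probes share signal was not tested. Over the list of thioesterases, 1 of 12 genes compared was past 2-fold in aging diabetic against natural aging, which is 8.33% beside 14.2% of all genes. The list's median was 0.61, beside -0.05 for all genes. Acot11, a thioesterase outside that cluster, went another way: it read -4.53 with APS plus metformin, against -1.85 with metformin, -2.08 in aging diabetic liver and -1.48 in natural aging liver. The dimmer Acot11 probe read -2.85 with metformin, -2.97 in aging diabetic liver and -0.30 in natural aging liver, a wider gap than on the brighter one. It was not well above background with APS plus metformin. Acot9, a mitochondrial thioesterase, was 2.31-fold lower with APS plus metformin than with metformin.

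**Figure D2:**
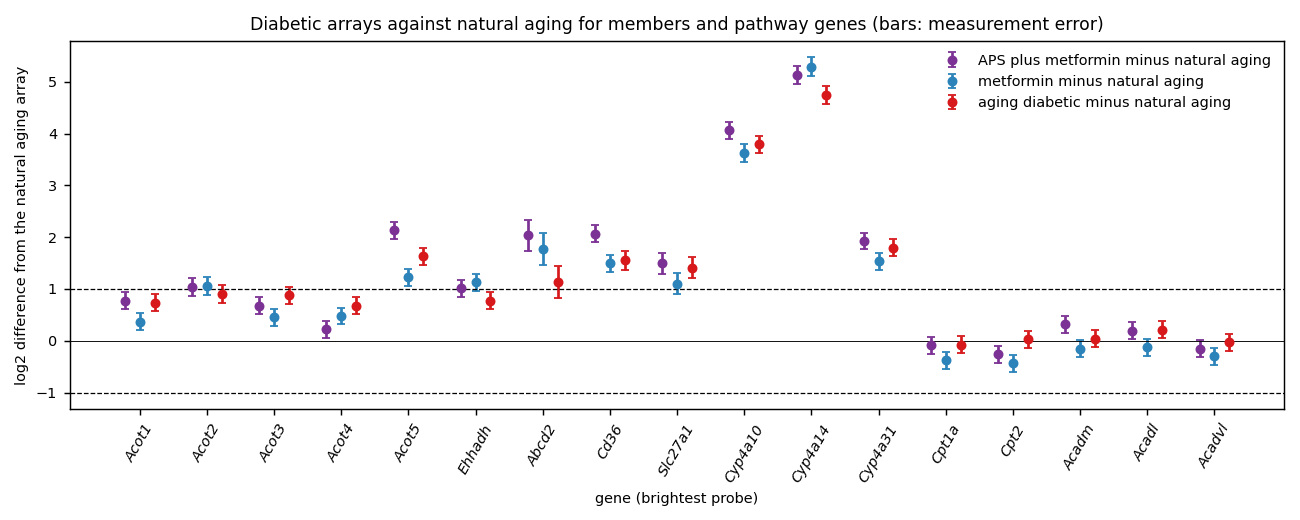
Log2 difference from the natural aging array for members and listed pathway genes on the APS plus metformin, metformin and aging diabetic arrays (points, 1 array each; bars are the combined measurement error; dashed lines mark 2-fold). Acot1, Acot2, Acot3, Acot4, Acot5, Ehhadh, Abcd2, Cd36, Slc27a1 and the Cyp4a genes lie above 0 on all 3 arrays, Acot1, Acot3 and Acot4 by less than 1 log2. Cpt1a, Cpt2 and Acadvl also lie within 1 log2 of 0, with Cpt1a and Acadvl below 0 on all 3.

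None of the 8 members makes ketone bodies. In the ketone list, Bdh1, the mitochondrial hydroxybutyrate dehydrogenase, read 2.75 with APS plus metformin, 2.69 with metformin, 2.71 in aging diabetic liver and 3.08 in natural aging liver. It was highest in natural aging liver and stayed within 2-fold.

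Other genes of the ketone list were past 2-fold. Oxct1, the transferase by which other tissues use ketone bodies and which hepatocytes largely lack, read 0.44 with metformin, -0.75 in aging diabetic liver and 0.17 in natural aging liver, and APS plus metformin lay lowest. Metformin was 2.28-fold above aging diabetic, and APS plus metformin was 2.71-fold below metformin. Slc16a6, a monocarboxylate transporter known from zebrafish to export ketone bodies from the liver, read -1.15 with APS plus metformin, 0.84 with metformin, -0.28 in aging diabetic liver and 1.29 in natural aging liver. It was 5.42-fold lower with APS plus metformin, and 2.96-fold lower in aging diabetic liver, than in natural aging liver. Bdh2, a cytosolic dehydrogenase, was 2.20-fold lower with APS plus metformin and 2.24-fold lower with metformin than in natural aging liver.

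Pdk4 differed most among the members. Pdk4 phosphorylates pyruvate dehydrogenase and switches it off, and it is induced by fasting and by PPAR-alpha. It read 0.79 with APS plus metformin, 1.82 with metformin, -0.14 in aging diabetic liver and 2.21 in natural aging liver, with no outlier flag on any array. The natural aging and metformin arrays were high, the aging diabetic array was low and the APS plus metformin array lay between, and each neighbouring step in this order was larger than the error of a difference. On a linear scale these are 1.72, 3.54, 0.907 and 4.63 times the 75th percentile on the APS plus metformin, metformin, aging diabetic and natural aging arrays.

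Aging diabetic liver had 5.11-fold less Pdk4 than natural aging liver, a difference of -2.35. Only 141 of the 15896 genes compared were lower by more. Pdk4 was the 1 member of 8 past 2-fold in this comparison, where 14.2% of all genes were past 2-fold either way and 6.07% were lower. Over the alternatives the difference ran between -2.42 and -2.24.

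Metformin had 3.90-fold more Pdk4 than aging diabetic liver (1.96), again the only member past 2-fold. Of all genes, 15.0% were past 2-fold in this comparison and 11.6% were higher, and 408 of 16949 genes were higher by more than Pdk4. The difference of metformin from natural aging was -0.39, short of 2-fold.

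APS plus metformin had 2.05-fold less Pdk4 than metformin alone (-1.04), where 14.5% of all genes were past 2-fold and 12.1% were lower. This call lies at the line: the difference was between -1.15 and -0.87 over the alternatives, and it was under 2-fold after normexp background correction and with each array's median as the scale. Against aging diabetic liver APS plus metformin was higher by 0.93, just under 2-fold, and no member was past 2-fold there, beside 11.2% of all genes. Against natural aging it was 2.69-fold lower (-1.43), where 6.69% of all genes were lower.

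Among the other kinases of the family, the brightest Pdk1 probe read 2.00, 1.39, 1.35 and 1.98 on the APS plus metformin, metformin, aging diabetic and natural aging arrays, and Pdk2, the form expressed most widely, read 0.72, 0.01, 0.22 and 0.20. Neither probe reached 2-fold in any of the 6 comparisons. A pair of dimmer Pdk1 probes did, without outlier flags. The first read -1.36 with APS plus metformin, -2.90 with metformin, -2.16 in aging diabetic liver and -2.50 in natural aging liver, and the second read -2.34, -4.32, -3.19 and -3.91. APS plus metformin was the highest on both, by 1.54 and 1.98 over metformin and by 1.14 and 1.57 over natural aging. Pdk3 was well above background on 2 of 4 arrays. The genes whose centred levels over the 4 arrays were most like those of Pdk4, among 13194 well above background on all arrays, were Pcolce2, Sowahc and Vcam1, with root mean square differences of 0.163, 0.172 and 0.176 log2. For Ehhadh they were Patz1, Izumo4 and Exoc4, at 0.017, 0.029 and 0.047. With 4 arrays many genes share an order, so these are descriptions only.

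Markers of other cell types varied beside Pdk4. The 5 stellate cell and matrix markers were well above background on every array. They summed to 14.3 times the 75th percentile with APS plus metformin, 19.5 with metformin, 9.71 in aging diabetic liver and 17.9 in natural aging liver. The sum was lowest on the aging diabetic array, as for Pdk4, and highest on the metformin array. Dcn alone gave 7.52 of the sum in aging diabetic liver and 11.8 in natural aging liver, where it was highest. Col1a1 was lowest with APS plus metformin (-1.85), while Col3a1, Dcn, Lrat and Pdgfrb were lowest in aging diabetic liver. The 7 leukocyte markers summed to 8.45, 16.3, 12.9 and 14.4 and the 5 liver endothelial markers to 16.2, 17.0, 14.6 and 21.0 on the APS plus metformin, metformin, aging diabetic and natural aging arrays. The endothelial sum had the order of Pdk4 over all 4 arrays, but none of the 5 endothelial markers had it alone. In APS plus metformin against metformin 4 of these 5 differences were above 0, where Pdk4 was below 0. Lyve1 was the other, at 0.43 with APS plus metformin and 1.52 with metformin. Of the leukocyte markers 6 of 7 were well above background on each array, Cd79a being the exception. White and brown adipocyte markers summed to 14.5, 12.0, 10.3 and 14.9, also lowest on the aging diabetic array, with Plin1 and Ucp1 not well above background on any array. Fabp4 alone gave 8.05 of the sum in aging diabetic liver and 12.3 in natural aging liver. Of 6 adipocyte markers compared between those arrays, 4 differences were below 0 and 2 above. Markers of pancreatic acinar cells, which are not liver cells, summed to 4.99, 15.8, 8.21 and 67.2. Cela1 alone gave 4.59 of the sum with APS plus metformin and 5.74 of that in aging diabetic liver. All 10 acinar markers lay below natural aging on the other arrays. Their median differences were -6.96 with APS plus metformin, -2.63 with metformin and -4.89 in aging diabetic liver. With APS plus metformin 5 of the 10 were well above background. The part of all these cell types in the Pdk4 differences was not tested.

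**Figure D3:**
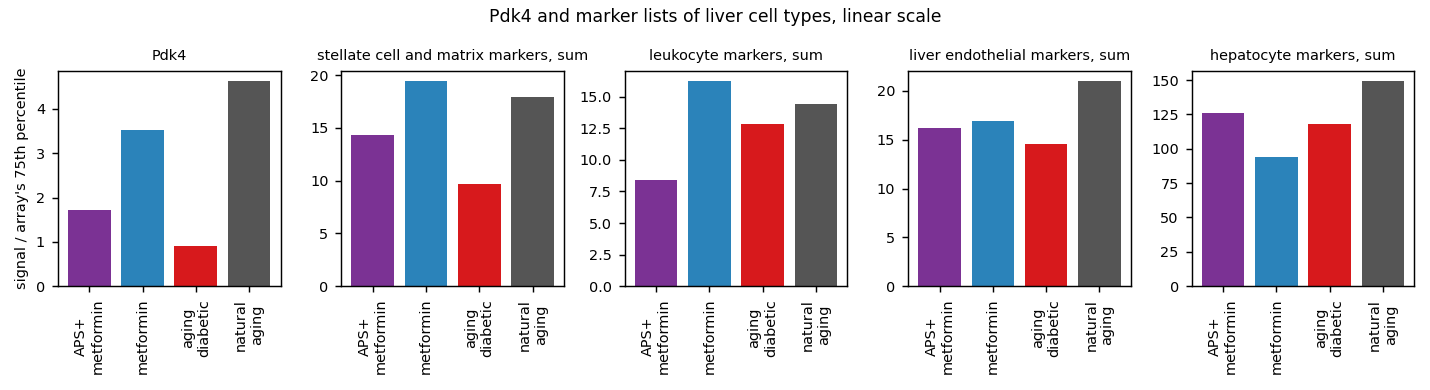
Signal of Pdk4 and summed signals of 4 marker lists, as multiples of the array's 75th percentile on a linear axis from 0, on the APS plus metformin, metformin, aging diabetic and natural aging arrays (bars, 1 array each, no replicate error). Pdk4 spans 0.907 to 4.63 and the stellate cell and matrix markers 9.71 to 19.5, both lowest on the aging diabetic array, while the hepatocyte markers span 94.2 to 149 and are lowest on the metformin array.

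Ppara, the receptor that governs much of the pathway, was read by 2 probes that gave the same order of groups. The brighter read 2.55 with APS plus metformin, 2.34 with metformin, 2.88 in aging diabetic liver and 2.94 in natural aging liver. The other read 1.98, 1.97, 2.55 and 2.70 on the same arrays. Both treated arrays were lower than both untreated ones on each probe, and the aging diabetic and natural aging arrays differed by no more than the error. The differences were -0.33 and -0.57 for APS plus metformin against aging diabetic, and -0.54 and -0.58 for metformin against aging diabetic, on the brighter and the other probe. None reached 2-fold. Between APS plus metformin and metformin the brighter probe differed by 0.21 and the other by 0.01.

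Partners of the receptor moved in different ways. Rxra, the main RXR of liver, read 3.89, 3.65, 3.80 and 4.00 on the APS plus metformin, metformin, aging diabetic and natural aging arrays on its brighter probe, within 2-fold throughout. Its dimmer probe read -1.64, -2.04, -0.99 and -1.30, and metformin was 2.06-fold below aging diabetic there (-1.04). Ppargc1a, a coactivator of PPAR-alpha that is induced in fasted liver, read 2.66 with APS plus metformin, 1.37 with metformin, 0.97 in aging diabetic liver and 1.12 in natural aging liver. APS plus metformin was higher than each of the other 3 arrays, by 1.29, 1.69 and 1.54. Ppargc1b, its paralog, read 0.62, -0.84, -1.17 and -1.54 and was likewise highest with APS plus metformin, 3.44-fold above aging diabetic. Lpin1, a phosphatidate phosphatase that also acts with these coactivators, read 3.33 with APS plus metformin, 2.33 with metformin, 1.58 in aging diabetic liver and 2.99 in natural aging liver, with outlier flags on the first 3.

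Fgf21 encodes a hormone that the liver secretes on fasting under PPAR-alpha. It read -3.33 with APS plus metformin, 0.55 with metformin, 0.87 in aging diabetic liver and -0.86 in natural aging liver. It was 18.3-fold lower with APS plus metformin than in aging diabetic liver, whose spot had an outlier flag, and 14.7-fold lower than with metformin. Rxrg, a form of RXR best known outside the liver, was 4.84-fold higher in aging diabetic than in natural aging liver.

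**Figure D4:**
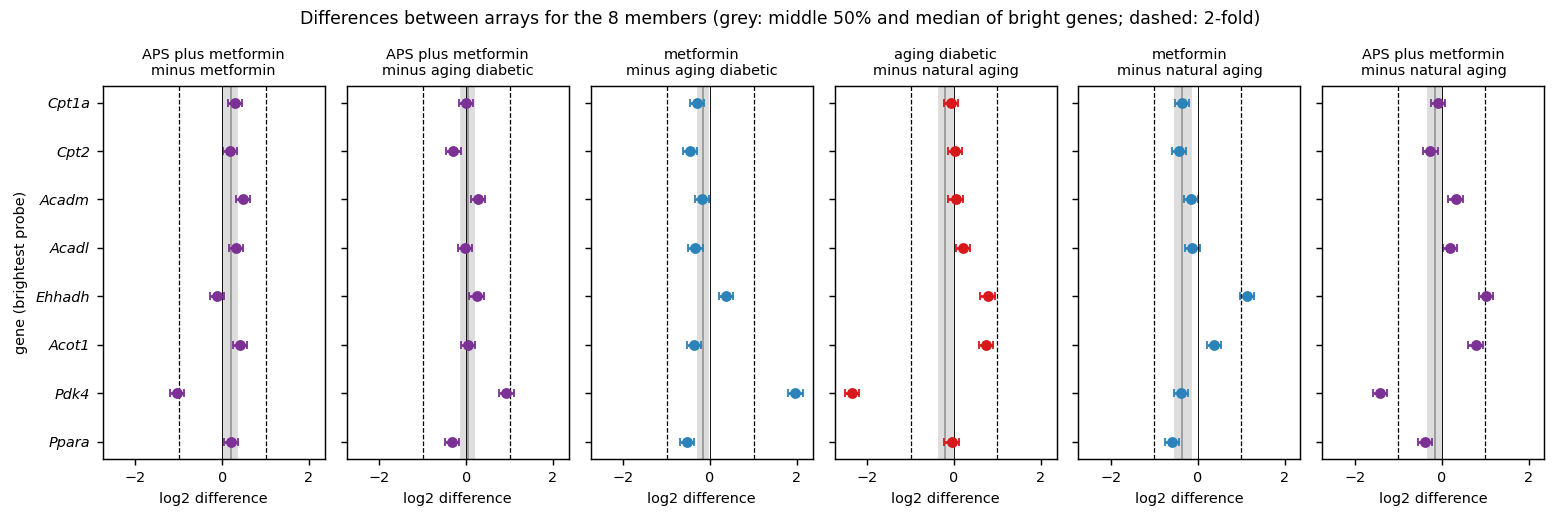
Log2 difference between arrays for the brightest probe of each of the 8 members in 6 comparisons (points; bars are the combined measurement error of about 0.163), with the middle 50% and the median of 3257 bright genes in grey and 2-fold as dashed lines. Pdk4 lies outside the dashed lines in 4 comparisons and Ehhadh in 2, and no other member does in any.

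Of 21 other listed targets of PPAR-alpha, 6 were past 2-fold in aging diabetic against natural aging, all higher. That is 28.6%, beside 14.2% of all genes, and the list's median was 0.09, with 8 of 21 genes below 0. Cpt1b, which is also in the carnitine shuttle list, was among the 6. The 3 with the largest differences are described here. Cyp4a10, a fatty acid omega-hydroxylase, read 3.47 with APS plus metformin, 3.03 with metformin and 3.20 in aging diabetic liver, against -0.59 in natural aging liver. Cyp4a14, a related hydroxylase, read 2.68, 2.84 and 2.29 on those arrays, against -2.45 in natural aging liver. Mogat1, a monoacylglycerol acyltransferase, read 0.84, 2.23 and 0.97, against -2.48 in natural aging liver. All 3 diabetic arrays were high for each of these genes, by 9.96-fold to 39.1-fold over natural aging, while Ehhadh was 2.19-fold higher at most and Cpt1a, Cpt2, Acadm and Acadl stayed within 2-fold. In the list of fatty acid uptake and activation 2 of 13 genes were past 2-fold against natural aging with APS plus metformin, with metformin and in aging diabetic liver. That is 15.4% in each, beside 13.0%, 17.9% and 14.2% of all genes, and over the alternatives the count ran from 1 to 3, 1 to 5 and 1 to 3. Most of the 13 genes lay below natural aging: 9 with APS plus metformin, 11 with metformin and 10 in aging diabetic liver. The list's medians were -0.28, -0.44 and -0.38, beside -0.17, -0.36 and -0.20 for the bright genes. Cd36, a fatty acid translocase, was 4.19-fold, 2.82-fold and 2.93-fold above natural aging with APS plus metformin, with metformin and in aging diabetic liver, with outlier flags on 3 of 4 spots. Slc27a1, a fatty acid transport protein, was 2.82-fold, 2.15-fold and 2.66-fold higher.

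Over the 9 pathway lists, 121 genes with the members, 120 had a probe. In aging diabetic against natural aging 14 of 118 genes compared were higher and 3 lower, together 14.4% beside 14.2% of all genes. In metformin against aging diabetic 9 of 119 were higher and none lower, 7.56% beside 15.0%. The corresponding counts were 4 higher and 6 lower of 119 for APS plus metformin against aging diabetic (8.40% beside 11.2%) and 2 higher and 12 lower of 118 for APS plus metformin against metformin (11.9% beside 14.5%). Against natural aging, 20 of 118 were higher and 1 lower with metformin (17.8% beside 17.9%), and 16 of 117 were higher and 7 lower with APS plus metformin (19.7% beside 13.0%). For the 8 members the share past 2-fold was 0 for APS plus metformin against aging diabetic, 25% for APS plus metformin against natural aging, and 12.5% in each of the other 4 comparisons. Of all genes 11.2% and 13.0% were past 2-fold in the first pair of comparisons and 14.2% to 17.9% in those 4, and 1 member of 8 is 12.5%.

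**Figure D5:**
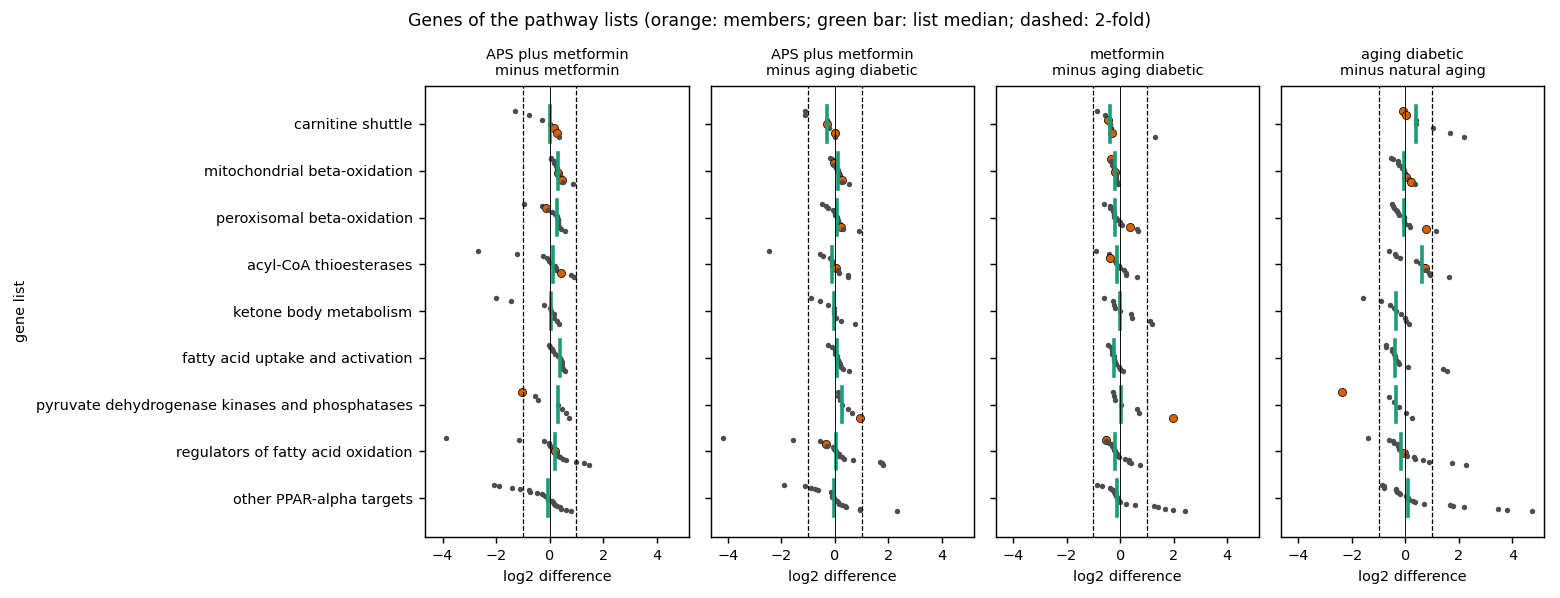
Log2 difference of every gene compared in the 9 pathway lists, in 4 comparisons (points, brightest probe; orange for the 8 members; green bars for the list median; dashed lines at 2-fold). The mitochondrial beta-oxidation genes lie between the dashed lines in all 4 panels, and Pdk4 is the lowest point of the pyruvate dehydrogenase kinase list at -2.35 in aging diabetic minus natural aging.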

How the data were processed

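Liver RNA of 4 groups was measured on 4 arrays of 1 slide, read in 1 scan in the red channel (Cy5), per the file headers. The unit of the deposited array files is the processed intensity of each spot, from which Feature Extraction had taken the background, per the file headers. Columns beside it give its error and mark saturated spots, outliers and spots clearly over background. The Agilent Feature Extraction version is 11.5.1.1 per the file headers and 10.7 per the submitters' processing notes. The deposited series table holds log2 values that the authors made with a normalization whose method is not given in the sources used here, and it served as an alternative.

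Processed intensities were taken to log2 and each array's 75th percentile was subtracted (Python 3.11.15, numpy 2.4.6, pandas 2.3.3, matplotlib 3.10.9). The 300 probes spotted 10 times were averaged, and outlier spots were kept and marked. Accessions matched to RefSeq named 33767 probes and left 22838 unnamed. For 8057 genes with several probes the brightest stood for the gene in counts. A gene was compared where at least 1 array was well above background. Where only 1 was, the dim spot was raised to the least signal that passed this flag on its array, if below it, and the difference is a bound. No test was run. Alternatives were normexp with an offset of 50 on the median spot signal (in place of the mean signal planned), quantile normalization and cyclic loess (R 4.3.3, limma 3.58.1), the array median as scale, the authors' values, outlier spots left out, both arrays above background, the mean of a gene's probes, and measured differences in place of bounds. The procedure was tested on simulated data. The members, the gene lists and the comparisons were chosen with earlier results of these data known. Genes named are the members, the 3 with the largest differences of at least 1 log2 in each pathway list, direct partners of a member, and for members spanning 1 log2 or more the 3 genes most like them. Some genes of the pathway lists are not reported here by name.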

Additional observations from a re-analysis of the deposited data

How the results depend on the processing

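No paired analysis was possible because each group has 1 array. Over 9 alternatives, 157 of 162 counts of genes past 2-fold were within 1.5 times. The number of members past 2-fold in APS plus metformin against metformin was 0 under normexp and 0 with array medians as the scale, in place of 1. In metformin against natural aging it was 0 with array medians and 0 with outlier spots left out, since the metformin spot of Ehhadh carries a flag, in place of 1. In APS plus metformin against natural aging it was 1 with array medians, in place of 2. Not every alternative could move a member value. All member probes were well above background on every array, so the settings on that flag and on bounds left each value as it was. Leaving out outlier spots left values from unflagged spots as they were. Of 471 member values, with these unmovable ones included, 102 moved by more than the measurement error, none past 2-fold changed sign, and 5 changed their call. These were the Pdk4 and Ehhadh calls named above and the dimmer Cpt2 probe, which reached -1.01 in metformin against aging diabetic with array medians. Differences of Pdk4 in aging diabetic against natural aging (-2.42 to -2.24), metformin against aging diabetic (1.80 to 2.07) and APS plus metformin against natural aging (-1.47 to -1.33) kept their call. Of 60 member differences, 15 changed sign under at least 1 alternative, all below 2-fold: Cpt1a in aging diabetic against natural aging, -0.08, ran from -0.12 to 0.22. Array medians moved the median of all genes to -0.23 in metformin against natural aging and to -0.19 in metformin against aging diabetic. They moved it to 0.16 in APS plus metformin against metformin. They also moved the split of calls over all genes to 663 higher and 1598 lower, against 413 and 2062, in APS plus metformin against metformin. The same split was 1525 and 849, against 1965 and 580, in metformin against aging diabetic and 1608 and 1292, against 2173 and 802, in metformin against natural aging. For the pathway lists the splits with array medians were 5 and 9, 8 and 3, and 16 and 6 in those comparisons. With the mean of a gene's probes they were 5 and 11, 7 and 1, and 21 and 6. With outlier spots left out they were 14 and 4 in metformin against natural aging and 12 and 5 in aging diabetic against natural aging. The causes were not tested. The arrays' number limits precision: differences under about 0.163 log2 are within measurement error, and the spread between mice is unknown.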
